A study of Mus musculus with 6 samples.

Results

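The genes described here encode the proteins that cut Notch receptors and the glycosyltransferases that modify them. They are the 9 genes that the deposited table names *Adam10*, *Adam17*, *Psen2*, *Ncstn*, *Aph1a*, *Psenen*, *Lfng*, *Mfng* and *Rfng*, of 55487 genes listed. They were chosen by name and role, each matched 1 row, and all 9 reached the mean of 1 TPM (transcript abundance per length, scaled to a fixed total in each library) over the libraries that was set for testing. The libraries hold RNA of first mandibular molar epithelium from mice at PN2.5 (postnatal day 2.5), in 3 control and 3 cKO libraries. Control mice were Wnt10aflox/flox, with loxP sites around part of both *Wnt10a* alleles and no Cre. The cKO mice were K14-Cre;Wnt10aflox/flox, in which the keratin 14 promoter drives Cre in epithelial cells, so that mesenchymal cells keep the gene. Each library came from a pool of molars, 4 according to the design text, while the paper's methods give another number. The study compared the groups to find what changes in the molar epithelium when the Wnt ligand gene *Wnt10a* is deleted there.

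Notch receptors are activated by successive cuts. When a ligand of a neighbouring cell pulls on the receptor, an ADAM metalloprotease, chiefly ADAM10, sheds the outer part, and the γ-secretase complex then cuts the rest within the membrane and frees the intracellular domain, which enters the nucleus and acts with RBPJ. The complex is built from presenilin, which holds the catalytic site, nicastrin (*Ncstn*), APH1 (*Aph1a*) and PEN-2 (*Psenen*). Fringe proteins (*Lfng*, *Mfng* and *Rfng*) work earlier, in the Golgi, where they add N-acetylglucosamine to O-linked fucose on the receptor, which changes how strongly Delta and Jagged ligands activate it. In teeth, Notch receptors and ligands are known from the enamel organ, the epithelium that forms enamel and later the root sheath.

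*Wnt10a* itself was lower in every cKO library, at 22.7, 21.8 and 32.2 TPM, than in the control libraries at 56.0, 51.2 and 57.9 TPM (log2 fold change -1.10, unadjusted p = 0.000653, adjusted p = 0.747, limma). Sequencing depth cannot be read from TPM, and counting errors are therefore not given. Separate pools stand behind the libraries, and p-values measure the spread between them. The epithelial markers *Krt14* (2190 to 2773 TPM) and *Krt5* (1945 to 3713 TPM) were high in all libraries, and the 9 epithelial markers together summed to between 195439 and 245850 TPM in 5 libraries and to 100767 TPM in cKO replicate 2. Without that library 0 of the 9 genes met the study's criteria, as with it. Markers of dental mesenchyme and odontoblasts were present too, with sums of 3590 to 7089 TPM over 9 genes, including *Col1a1* at 1795 to 3127 TPM. The muscle markers were near 0, with sums of 0.24 to 1.79 TPM over 6 genes. The pools are bulk tissue, in which fewer cells of a type and less RNA per cell cannot be told apart.

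None of the 9 genes differed between the groups beyond the spread of the libraries. Of the 13719 genes tested with limma on log2(TPM + 1), 0.0146% had an adjusted p below 0.05, and 0 of the 9 were among them. The study's criteria ask for an unadjusted p below 0.05 together with a change of more than 20% of the control mean. Here the p is from limma and not the study's own, so the genes called are not the study's list. Under these criteria 4.02% of the tested genes were called, with 2.47% lower and 1.55% higher in cKO, and 0 of the 9 were called. The count at an unadjusted p below 0.05 alone was also 0 of 9. The groups overlapped for all 9 genes, while they did not overlap for 9.64% of the tested genes, with 6.13% lower and 3.51% higher in cKO. On this scale 7 of the 9 were lower and 2 higher in cKO, and their median log2 fold change was -0.16, beside a median of -0.07 over all tested genes, of which 60.3% were lower.

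The levels spanned a wide range, and TPM, being per length, allow genes to be compared. In the control libraries *Ncstn* had the highest mean, 106 TPM, followed by *Psenen* at 94.1 TPM, *Aph1a* at 68.8 TPM and *Adam10* at 57.4 TPM. *Lfng* came next at 30.8 TPM, then *Adam17* at 20.7 TPM, *Rfng* at 15.9 TPM, *Psen2* at 10.9 TPM and *Mfng* at 3.48 TPM. The ranges of 4 neighbouring pairs overlapped in the control libraries: *Ncstn* with *Psenen*, *Aph1a* with *Adam10*, *Adam10* with *Lfng*, and *Adam17* with *Rfng*. In the cKO libraries *Psenen* stood above *Ncstn* in 2 of 3 libraries and *Rfng* above *Adam17* in 1 of 3, with overlapping ranges, and the rest of the order was that of the control.

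**Figure D1:**
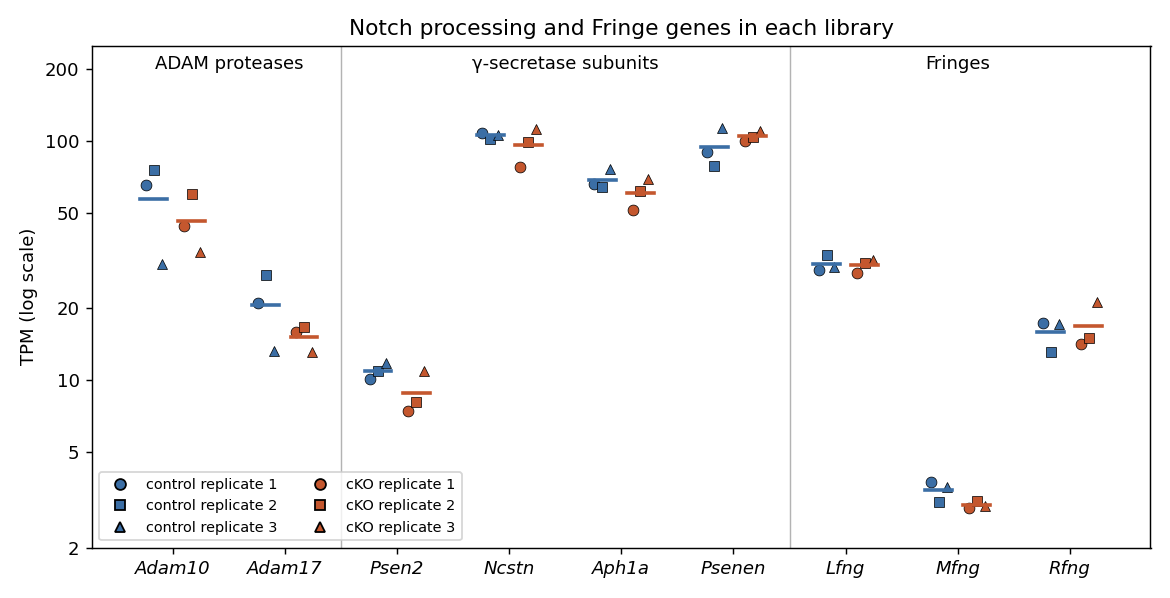
TPM of the 9 genes in each of the 3 control (blue) and 3 cKO (orange) libraries, on a log scale, with a marker shape for each replicate number and a bar for the group mean. The points of the 2 groups overlap for every gene, and the ADAM genes spread most widely, from 30.7 to 75.6 TPM for *Adam10*.

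*Adam10* encodes the main protease of the first cut and spans chr9:70678997-70780229 in GRCm38 (forward strand). It measured 65.8, 75.6 and 30.7 TPM in the control pools and 44.0, 60.2 and 34.6 TPM in the cKO pools. Control replicate 3 was the lowest of all 6 libraries and control replicates 1 and 2 the highest, so the control range enclosed the cKO range. The means were 57.4 ± 23.6 TPM (SD, n = 3) and 46.3 ± 13.0 TPM (SD, n = 3). The log2 fold change was -0.24 with a 95% interval from -1.10 to 0.61 (unadjusted p = 0.526, adjusted p = 1.00, limma).

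*Adam17*, also called TACE, encodes the protease best known for shedding TNF-α and EGF receptor ligands, and it can also cut Notch. The gene spans chr12:21323509-21373632 (reverse strand). It measured 21.1, 27.6 and 13.3 TPM in the control pools and 16.0, 16.7 and 13.1 TPM in the cKO pools. The 2 highest libraries were control replicates 2 and 1, as for *Adam10*, and control replicate 3 lay below 2 of the 3 cKO libraries. The log2 fold change was -0.36 with a 95% interval from -1.01 to 0.28 (unadjusted p = 0.225, adjusted p = 1.00, limma).

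The libraries stood in the same order for both ADAM genes down to the fourth, namely control replicate 2, control replicate 1, cKO replicate 2 and cKO replicate 1, and the 2 replicates numbered 3 were the lowest. *Adam10* and *Adam17* also have the longest transcripts of the 9 genes, 4593 and 4469 bases. Long transcripts in general moved in this way between the libraries. Protein-coding genes were split into 10 bins of transcript length. In the bin of 4498 to 5283 bases, which holds *Adam10*, the median deviation from the gene mean on the log2 scale was 0.14, 0.33 and -0.22 in the control pools and -0.19, 0.12 and -0.16 in the cKO pools. For *Adam10* the deviation was 0.41, 0.61 and -0.66 in the control pools and -0.16, 0.29 and -0.50 in the cKO pools, which has the same signs in all 6 libraries and is larger in 5 of them. *Adam17* deviated by 0.27, 0.64 and -0.36 in the control pools and -0.11, -0.05 and -0.38 in the cKO pools, with the signs of its own bin, of 3924 to 4497 bases, except in cKO replicate 2, where the bin was at 0.14.

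Once the trend with transcript length and GC content had been removed from each library, *Adam10* was 60.4, 52.3 and 44.1 TPM in the control pools and 44.6, 48.9 and 46.4 TPM in the cKO pools. The residual SD of *Adam10* on the log2 scale was 0.56 before the correction and 0.16 after it, while the median over all tested genes was 0.30 before and 0.23 after. For *Adam17* the residual SD was 0.38 before and 0.11 after, and the corrected levels were 19.3, 20.5 and 17.5 TPM in the control pools and 16.9, 14.3 and 16.3 TPM in the cKO pools. These corrected groups did not overlap, which held for 1 of the 9 genes and for 9.77% of all genes on the corrected scale, with 4.84% lower in cKO. The corrected log2 fold changes were -0.15 for *Adam10* (95% interval -0.49 to 0.19) and -0.26 for *Adam17* (95% interval -0.56 to 0.04), where limma gave unadjusted p of 0.334 and 0.0811 and an adjusted p of 1.00 for both.

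The difference of the ADAM genes depended on which control library was left out. Without control replicate 3 *Adam10* had a log2 fold change of -0.63 (unadjusted p = 0.0451, limma) and *Adam17* of -0.64 (unadjusted p = 0.0241, limma), and both met the study's criteria. In that fit the median over all genes was -0.18 and 1152 genes met the criteria, and the smallest adjusted p among the 9 genes was 0.585. Without control replicate 2 the log2 fold change of *Adam10* was 0.0020. Before the length and GC correction, the ratio of *Adam10* to *Adam17* within a library was steadier than either level. *Adam10* made up 75.7%, 73.3% and 69.8% of the sum of both in the control pools and 73.4%, 78.3% and 72.5% in the cKO pools (exact two-sided permutation test, p = 0.5). After the correction the ratio was not steadier than the levels. *Adam10* then made up 75.8%, 71.8% and 71.6% in the control pools and 72.6%, 77.3% and 74.1% in the cKO pools.

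**Figure D2:**
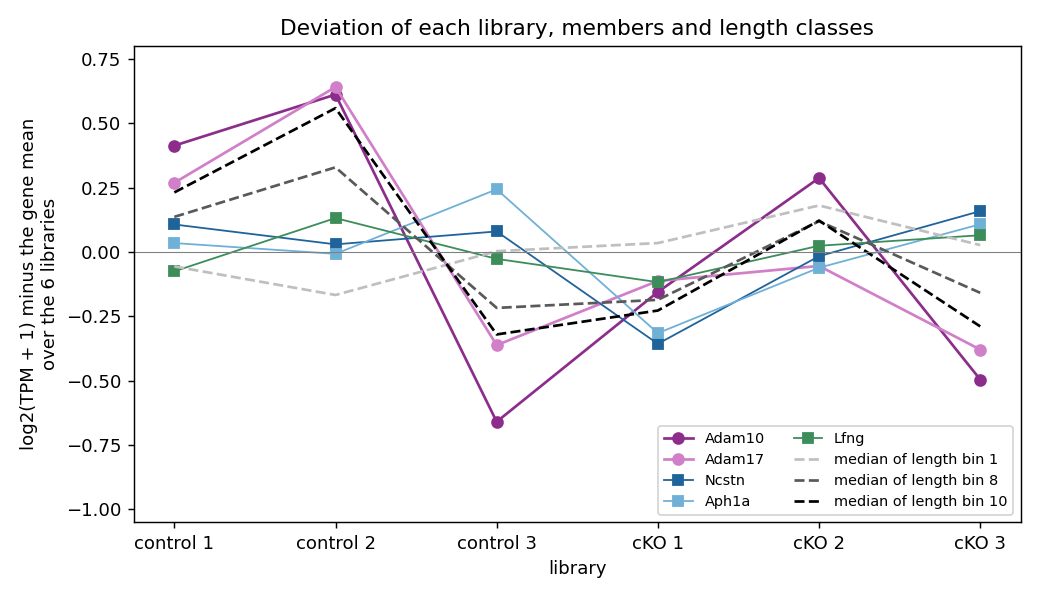
Deviation of each library from the mean of the gene over the 6 libraries, as log2(TPM + 1), for *Adam10*, *Adam17*, *Ncstn*, *Aph1a* and *Lfng* (solid lines) and as the median of protein-coding genes in 3 of the 10 bins of transcript length, bin 1 being the shortest (dashed lines). *Adam10* and *Adam17* lie on the same side of 0 as the longer bins except *Adam17* in cKO replicate 2, and go from 0.61 and 0.64 in control replicate 2 to -0.66 and -0.36 in control replicate 3, whereas *Lfng* stays between -0.12 and 0.13.

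The promoters of the ADAM pair are shown because the uncorrected levels of these genes moved together across the libraries. After the length and GC correction, cKO replicate 2 was the highest cKO library for *Adam10* (48.9 TPM). It was then the lowest library for *Adam17* (14.3 TPM). A link between the promoter sequences and the levels was not tested. The sequences are RefSeq's for GRCm38.p6, from 250 bases before the transcription start to 50 after it, on the strand of the gene. The file's own build is not given in the sources used here. Capitals mark the GC box GGGCGG, searched on both strands, which is in 35.7% of the 32851 promoters of this length. *Adam10* (chr9:70678732-70679031, forward strand) holds 3 matches, a pair of them overlapping, and *Adam17* (chr12:21373583-21373882, reverse strand) holds 1. Neither holds CTTTGA, the core of the TCF/LEF motif read by β-catenin's partners, nor TGGGAA, the core of the RBPJ motif. Both are rich in CpG, with 32 and 30 CpG beside a median of 7.0 over all promoters. The pair does not stand apart in this, as the promoter of *Rfng* holds 6 GC boxes and 44 CpG. The GC box is in a promoter of 6 of the 8 described genes that have a promoter sequence, or in 6 of their 10 promoters.
Adam10 promoter: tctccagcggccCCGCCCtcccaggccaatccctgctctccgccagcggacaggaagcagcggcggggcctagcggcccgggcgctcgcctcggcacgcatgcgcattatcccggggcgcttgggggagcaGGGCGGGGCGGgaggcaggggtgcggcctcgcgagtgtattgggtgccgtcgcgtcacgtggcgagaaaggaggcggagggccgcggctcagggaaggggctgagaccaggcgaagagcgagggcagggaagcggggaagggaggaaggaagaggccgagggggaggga
Adam17 promoter: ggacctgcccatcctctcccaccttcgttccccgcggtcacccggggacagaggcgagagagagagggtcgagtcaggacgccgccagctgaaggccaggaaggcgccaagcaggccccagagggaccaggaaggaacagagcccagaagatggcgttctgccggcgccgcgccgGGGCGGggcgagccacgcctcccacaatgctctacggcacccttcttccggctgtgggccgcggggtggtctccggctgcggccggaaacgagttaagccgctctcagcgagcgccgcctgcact

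The γ-secretase subunit genes varied less between the libraries. *Ncstn* encodes nicastrin, the large subunit outside the membrane that receives the shed receptor stub, and spans chr1:172066013-172082795 (reverse strand). It was 108, 103 and 106 TPM in the control pools and 78.2, 99.3 and 112 TPM in the cKO pools. The control libraries lay close together and inside the range of the cKO libraries, of which replicate 1 was the lowest. The log2 fold change was -0.14 with a 95% interval from -0.54 to 0.26 (unadjusted p = 0.427, adjusted p = 1.00, limma).

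*Aph1a* encodes the scaffold subunit on which the complex begins to assemble, and spans chr3:95893969-95898288 (forward strand). It was 66.0, 64.1 and 76.4 TPM in the control pools and 51.6, 61.7 and 69.5 TPM in the cKO pools. Replicates 1 and 2 of the cKO were the 2 lowest libraries, and cKO replicate 3 was above control replicates 1 and 2. cKO differed from control by -0.18 on the log2 scale, with a 95% interval from -0.58 to 0.22 (unadjusted p = 0.323, adjusted p = 1.00, limma).

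*Psenen* encodes PEN-2, the small subunit that completes the complex and starts the self-cleavage of presenilin, and spans chr7:30561863-30563627 (reverse strand). It was 90.2, 78.9 and 113 TPM in the control pools and 101, 104 and 111 TPM in the cKO pools. Control replicates 1 and 2 were the lowest and control replicate 3 the highest of all 6. Its longest transcript, of 708 bases, is the shortest of the 9 genes, and in the bin of the shortest protein-coding genes the median log2 fold change was 0.17. That of *Psenen* was 0.17 with a 95% interval from -0.23 to 0.58 (unadjusted p = 0.344, adjusted p = 1.00, limma), and 0.07 after the length and GC correction.

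*Psen2* encodes presenilin 2, a catalytic subunit, and spans chr1:180227004-180263438 (reverse strand). It was 10.1, 10.9 and 11.8 TPM in the control pools and 7.48, 8.10 and 10.9 TPM in the cKO pools. Only cKO replicate 3 reached the control range, where it equalled control replicate 2 at 10.92 TPM. The log2 fold change was -0.29 with a 95% interval from -0.77 to 0.18 (unadjusted p = 0.191, adjusted p = 1.00, limma), the smallest p of the 9 genes. With the length and GC correction it was -0.27, with a 95% interval from -0.63 to 0.10.

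*Psen2*, *Ncstn* and *Aph1a* shared the same lowest library, cKO replicate 1, followed by cKO replicate 2. Together the 4 genes summed to 275, 256 and 308 TPM in the control pools and 238, 273 and 303 TPM in the cKO pools (exact two-sided permutation test, p = 0.7). Within that sum *Aph1a* took 24.0%, 24.99% and 24.8% in the control pools and 21.7%, 22.6% and 22.9% in the cKO pools, lower in all 3 cKO libraries than in any control library. *Psen2* took 3.68%, 4.26% and 3.83% in the control pools and 3.15%, 2.96% and 3.60% in the cKO pools, again without overlap. Both shares had p = 0.1 by the two-sided exact permutation test, the smallest that 3 against 3 allow. After Benjamini-Hochberg adjustment over the 18 sums, shares and ratios within the families it was 0.771. After the length and GC correction, applied to the shares once their values were seen, the difference in the mean *Aph1a* share was -1.08 percentage points in place of -2.24, and that of *Psen2* -0.656 in place of -0.685, with neither share overlapping between the groups. *Psenen*, whose share makes up the rest with *Ncstn*, took 32.8%, 30.8% and 36.8% in the control pools and 42.3%, 38.2% and 36.5% in the cKO pools, with an overlap (exact two-sided permutation test, p = 0.2). Exons of *Adam17*, *Ncstn*, *Aph1a* and *Psenen* share between 111 and 445 bases with genes on the opposite strand, whose reads could not be told apart if strand was not used in counting.

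**Figure D3:**
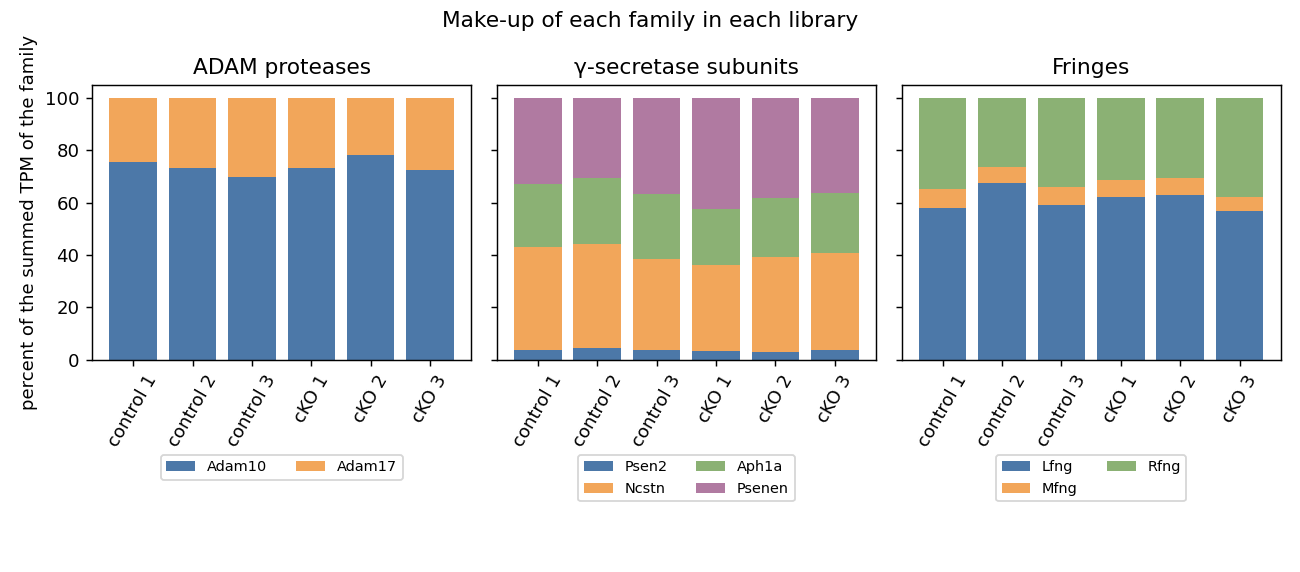
Share of each gene in the summed TPM of its family, in percent, as stacked bars for each library and each of the 3 families. *Aph1a* takes 24.0% to 24.99% of the γ-secretase sum in the control pools and 21.7% to 22.9% in the cKO pools, and *Lfng* takes 56.8% to 67.4% of the Fringe sum over all 6.

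Among the Fringe genes, *Lfng* and *Mfng* varied least of the 9 genes between libraries of a group, while *Rfng* varied more than the γ-secretase genes. *Lfng*, which encodes Lunatic Fringe and is known as a Notch target in the segmenting embryo, spans chr5:140607320-140615545 (forward strand). It was 28.9, 33.5 and 29.9 TPM in the control pools and 28.0, 31.0 and 31.95 TPM in the cKO pools, so that the groups covered nearly the same range. The means were 30.8 ± 2.42 TPM (SD, n = 3) and 30.3 ± 2.04 TPM (SD, n = 3). cKO differed from control by -0.02 on the log2 scale, with a 95% interval from -0.38 to 0.34 (unadjusted p = 0.903, adjusted p = 1.00, limma). Its residual SD was 0.10 on the log2 scale, and 2.59% of the tested genes had a lower one.

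*Rfng* encodes Radical Fringe and spans chr11:120780746-120784207 (reverse strand). It was 17.3, 13.2 and 17.3 TPM in the control pools and 14.2, 15.1 and 21.3 TPM in the cKO pools. The cKO libraries held the highest value, and control replicate 2 the lowest. cKO differed from control by 0.07 on the log2 scale, with a 95% interval from -0.45 to 0.58 (unadjusted p = 0.765, adjusted p = 1.00, limma).

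*Mfng* encodes Manic Fringe and spans chr15:78755882-78773475 (reverse strand). It was 3.78, 3.09 and 3.58 TPM in the control pools and 2.94, 3.13 and 2.98 TPM in the cKO pools. Control replicate 2 lay within the cKO range and the other two control libraries above it. cKO differed from control by -0.16 on the log2 scale, with a 95% interval from -0.64 to 0.33 (unadjusted p = 0.474, adjusted p = 1.00, limma), on a scale that understates the change of such a low gene. *Mfng* is also expressed in blood vessels and blood cells. The 6 endothelial markers summed to 145, 117 and 139 TPM in the control pools and 96.2, 105 and 113 TPM in the cKO pools, and the 7 immune markers to 25.6, 11.98 and 17.6 TPM and to 13.3, 14.6 and 14.2 TPM, with *Ptprc* at or below 0.50 TPM throughout. All 6 endothelial markers were lower in cKO, beside 60.3% of all tested genes. Of the 6, 2 met the study's criteria, beside 2.47% of all tested genes called as lower. They were *Cdh5* (log2 fold change -0.77, unadjusted p = 0.0288, limma) and *Tek* (-0.54, unadjusted p = 0.0458, limma). After the length and GC correction limma gave them unadjusted p of 0.0624 and 0.0617, outside the criteria. The 5 red blood cell markers, all lower, summed to 1761, 1325 and 1978 TPM in the control pools and 1228, 1282 and 1161 TPM in the cKO pools without overlap. Of the 5, 1 met the criteria, *Hbb-bs* (-0.43, unadjusted p = 0.0323, limma), beside the same 2.47%. The adjusted p from limma was below 0.05 for 0 of the endothelial and red blood cell markers. The part of these cells in the level of *Mfng* was not tested.

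The mean of the Fringe sum was 50.2 TPM in both groups, with a wider spread in the cKO. The sum was 49.99, 49.8 and 50.8 TPM in the control pools and 45.2, 49.3 and 56.2 TPM in the cKO pools (exact two-sided permutation test, p = 1). *Lfng* took 61.4% ± 5.21 (SD, n = 3) of it in control pools and 60.6% ± 3.33 (SD, n = 3) in cKO pools, *Rfng* took 31.7% ± 4.56 and 33.3% ± 3.97, and *Mfng* the remaining 6.94% ± 0.682 and 6.05% ± 0.658.

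**Figure D4:**
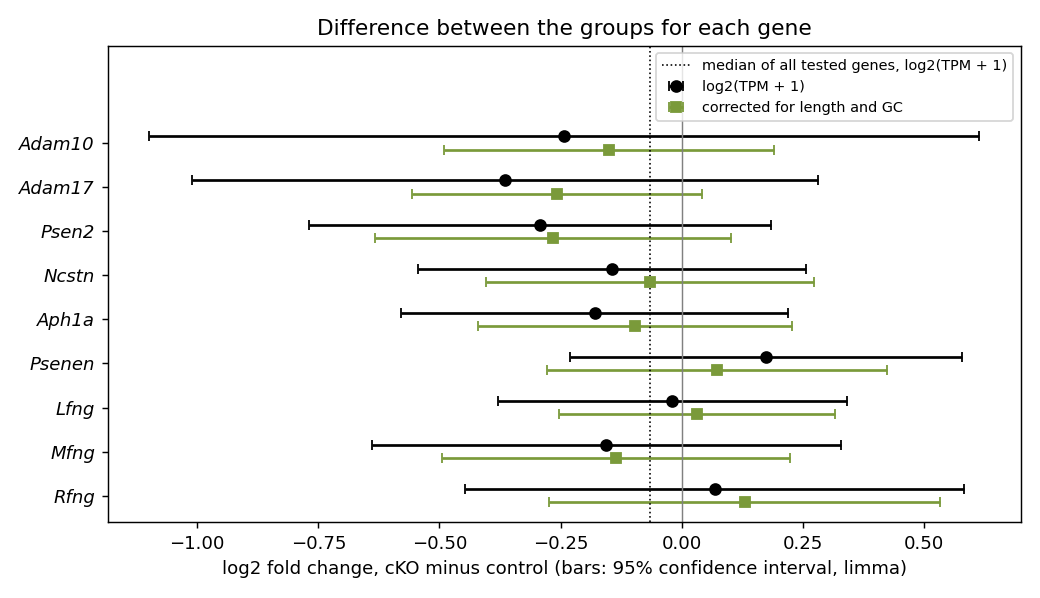
Log2 fold change of each gene, cKO minus control, with its 95% confidence interval from limma, on log2(TPM + 1) (black circles) and after the length and GC correction (green squares). The dotted line is the median of all tested genes, -0.07. All 18 intervals include 0, and that of *Adam10* narrows from -1.10 to 0.61 before the correction to -0.49 to 0.19 after it.

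Promoters were searched for the cores of the Wnt and Notch effector motifs, on both strands, in the 8 of the 9 genes that the RefSeq table holds. *Mfng* has no entry. The TCF/LEF core CTTTGA was found in the promoter of 1 gene, *Ncstn*, and is in 16.0% of all 32851 promoters. The RBPJ core TGGGAA was found in a promoter of 4 genes, *Lfng*, *Aph1a*, *Psen2* and *Psenen*, or in 4 of the 10 promoters listed for the 8 genes, and is in 25.6% of all promoters. *Psen2* and *Psenen* hold it only in the second of their promoters. The promoters of *Ncstn* (chr1:172082700-172082999, reverse strand) and *Lfng* (chr5:140607091-140607390, forward strand) are shown because they hold the single TCF/LEF core and a pair of RBPJ cores, in capitals. In *Ncstn* the match begins at position -200 from the start, and in *Lfng* the matches begin at positions -135, on the opposite strand, and -108. A match is a description of the letters and not a binding site.
Ncstn promoter: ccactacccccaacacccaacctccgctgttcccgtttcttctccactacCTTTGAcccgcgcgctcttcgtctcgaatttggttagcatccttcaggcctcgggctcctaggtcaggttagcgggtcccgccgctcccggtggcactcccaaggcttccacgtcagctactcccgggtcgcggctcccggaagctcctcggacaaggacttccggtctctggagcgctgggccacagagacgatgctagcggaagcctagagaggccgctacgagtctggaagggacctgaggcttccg
Lfng promoter: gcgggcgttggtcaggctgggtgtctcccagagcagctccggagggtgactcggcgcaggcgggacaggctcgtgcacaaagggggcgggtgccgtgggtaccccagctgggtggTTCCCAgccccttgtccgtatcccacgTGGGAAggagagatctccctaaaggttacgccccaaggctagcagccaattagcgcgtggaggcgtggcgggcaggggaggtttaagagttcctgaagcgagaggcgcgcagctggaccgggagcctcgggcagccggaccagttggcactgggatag

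The families were also set against the receptors they act on within each library, a comparison chosen after the values were seen. Of the receptor genes, *Notch1*, *Notch2* and *Notch3* met the study's criteria as lower in cKO and *Notch4* did not, and these values were known when the ratios were chosen. The ratios are given as a description with no test, since a lower receptor sum by itself raises them. The mean γ-secretase and Fringe sums differed little between the groups. The mean ADAM sum was lower in cKO (cKO minus control -16.52 TPM), with overlapping groups (exact two-sided permutation test, p = 0.5). The 4 Notch receptor genes summed to 108, 113 and 81.8 TPM in the control pools and 44.2, 53.4 and 67.8 TPM in the cKO pools. For each TPM of receptor there were 2.54, 2.27 and 3.76 TPM of the γ-secretase genes in the control pools and 5.39, 5.12 and 4.47 TPM in the cKO pools. The means were 2.86 ± 0.793 (SD, n = 3) and 4.99 ± 0.471 (SD, n = 3). The Fringe genes gave 0.463, 0.440 and 0.620 TPM per TPM of receptor in the control pools and 1.02, 0.922 and 0.829 TPM in the cKO pools. The ADAM genes gave 0.804, 0.914 and 0.538 TPM in the control pools and 1.36, 1.44 and 0.703 TPM in the cKO pools, where cKO replicate 3 fell inside the control range.

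Receptor transcripts are long, so these ratios were also computed after the length and GC correction. The γ-secretase ratio was then 3.18 ± 0.320 (SD, n = 3) in control pools and 4.35 ± 0.265 (SD, n = 3) in cKO pools, and the Fringe ratio 0.564 ± 0.0279 (SD, n = 3) and 0.820 ± 0.0843 (SD, n = 3). The ADAM ratio was 0.816 ± 0.0931 (SD, n = 3) and 1.01 ± 0.160 (SD, n = 3).

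**Figure D5:**
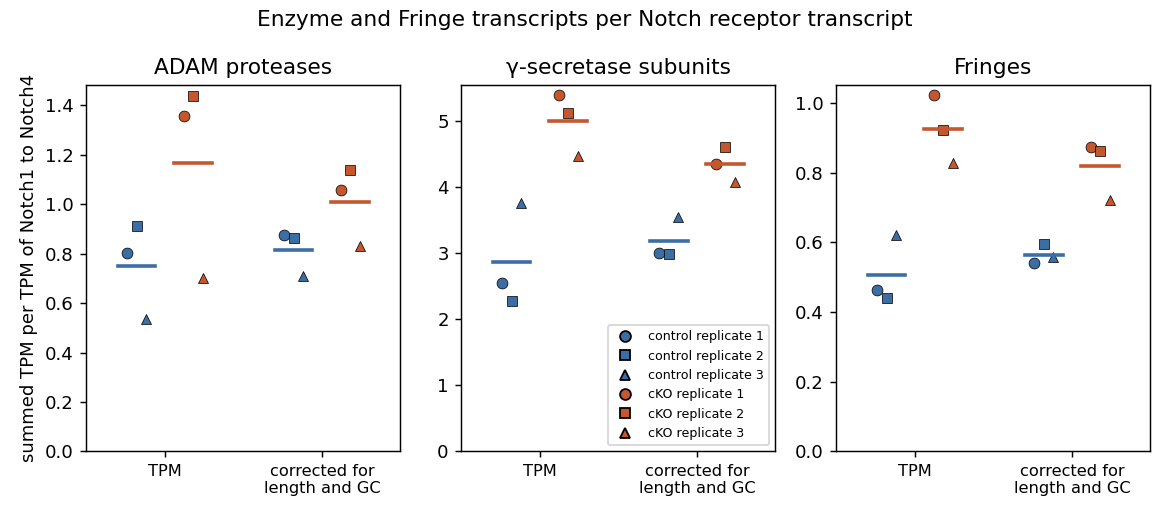
Summed TPM of the members of each family per summed TPM of *Notch1* to *Notch4*, in each control (blue) and cKO (orange) library, from the deposited TPM and after the length and GC correction; bars are group means. Before the correction γ-secretase is at 4.47 to 5.39 in cKO against 2.27 to 3.76 in control, and the Fringes at 0.829 to 1.02 against 0.440 to 0.620.

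Other enzymes build the sugar chains on Notch. Of 9 such genes, all tested, 0 met the study's criteria and 0 had groups without overlap, beside 4.02% and 9.64% of all tested genes. The median of their log2 fold changes was -0.12. *Pofut1*, which adds the fucose that Fringe extends, was 8.08, 11.7 and 6.22 TPM in the control pools and 5.68, 7.76 and 5.51 TPM in the cKO pools (log2 fold change -0.38, unadjusted p = 0.2, limma). *B4galt1*, which adds galactose onto the Fringe product, was 34.4, 39.8 and 30.6 TPM and 25.9, 33.8 and 33.3 TPM. *Furin*, the convertase that cuts the receptor during its maturation, was 71.1, 63.9 and 70.2 TPM in the control pools and 37.1, 47.9 and 73.2 TPM in the cKO pools, where replicates 1 and 2 lay below and replicate 3 above the control range. Its log2 fold change was -0.42 (unadjusted p = 0.132, limma) and -0.14 after the length and GC correction. *Aph1b*, a paralogue of *Aph1a*, was at 4.94 to 7.82 TPM and *Aph1c* at 0.70 to 1.90 TPM over the 6 libraries.

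Among 13 genes for partners and inhibitors of the ADAM proteases, 11 were tested, 9 were lower, and 1 met the study's criteria, against 4.02% of all tested genes. It was *Timp1*, which encodes a secreted metalloprotease inhibitor that acts on ADAM10. *Timp1* was 32.3, 20.5 and 21.3 TPM in the control pools and 39.7, 45.0 and 34.0 TPM in the cKO pools, every cKO library above every control library. Its log2 fold change was 0.68 (standard error 0.22, unadjusted p = 0.0179, adjusted p = 1.00, limma) and 0.59 after the length and GC correction. *Timp3*, the inhibitor of ADAM17, was 27.6, 25.2 and 18.8 TPM in the control pools and 14.96, 23.1 and 20.8 TPM in the cKO pools, with an overlap.

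The TspanC8 tetraspanins carry ADAM10 to the cell surface, and 5 of the 6 were tested. *Tspan14* was 52.6, 54.1 and 51.2 TPM in the control pools and 40.5, 38.1 and 48.8 TPM in the cKO pools, without overlap but with an unadjusted p of 0.0843 from limma (log2 fold change -0.31, adjusted p = 1.00). *Tspan5* and *Tspan15* had log2 fold changes of -0.28 and -0.24 with overlapping groups, and of -0.03 and -0.11 after the length and GC correction. *Rhbdf2*, which encodes iRhom2, the partner that brings ADAM17 out of the endoplasmic reticulum, was 20.3, 28.1 and 27.5 TPM in the control pools and 13.0, 13.4 and 25.7 TPM in the cKO pools, where replicate 3 overlapped the control (unadjusted p = 0.0888, adjusted p = 1.00, limma). Of the 5 other membrane ADAM genes, *Adam8*, *Adam9*, *Adam12*, *Adam15* and *Adam19*, 4 were tested. The criteria were met by 0 of them, beside 4.02% of all tested genes, and the median of their log2 fold changes was -0.25.

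In the wider list of 58 other Notch pathway genes, 54 were tested and 45 were lower, beside 60.3% of all tested genes. The study's criteria were met by 4, all lower in cKO, beside 2.47% of all tested genes, and 0 had an adjusted p below 0.05 from limma. They were *Notch1*, *Notch2*, *Notch3* and *Spen*, which encodes a corepressor that binds RBPJ. Their log2 fold changes were -0.90, -0.87, -0.73 and -0.76, and -0.52, -0.49, -0.38 and -0.34 after the length and GC correction, where limma gave *Spen* an unadjusted p of 0.141, outside the criteria. The median log2 fold change of the 54 genes was -0.18, and -0.05 after the length and GC correction. Among the targets of the pathway, *Hes1* was 48.2, 57.3 and 39.1 TPM in the control pools and 57.5, 56.1 and 49.3 TPM in the cKO pools, and *Nrarp* 26.4, 24.0 and 28.2 TPM and 24.2, 29.0 and 30.6 TPM. The groups overlapped for both, and 0 of the 5 tested target genes met the criteria, beside 4.02% of all tested genes.

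The genes most like *Psen2* and *Lfng* across the 6 libraries were found by Pearson's correlation of log2(TPM + 1), as a description of 6 points that share library composition. For *Psen2* they were *Dyrk1b* (r = 0.992), *Tspan5* (r = 0.992) and *Hmgxb3* (r = 0.990), and 292 tested genes had r above 0.9. For *Lfng* they were *Kdm8* (r = 0.978), *Pla2g4e* (r = 0.977) and *Tpmt* (r = 0.976), and 64 tested genes had r above 0.9.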

How the data were processed

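RNA-seq libraries of dental epithelium from 3 control and 3 cKO pools at PN2.5 were used, grouped and numbered by the sample titles. Per the paper's methods, the authors used SeqPrep and Sickle for trimming, HISAT2 for alignment and RSEM for quantification, whereas the submitters' processing notes name HISAT2 and StringTie. The authors deposited 1 value per gene and library. The methods name FPKM, but each library sums to between 983952 and 993946, so the deposited values are TPM. The genome build, annotation and use of strand are not given in the sources used here. Of the listed identifiers, 99.5% are in GENCODE M21 (GRCm38), which gave gene models, lengths and GC content.

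From these TPM, log2(TPM + 1) was tested in the 13719 genes whose mean reached 1 TPM with limma 3.58.1 in R 4.3.3 (eBayes with a mean-variance trend, two-sided, no block, Benjamini-Hochberg over all tested genes), which gave the p, standard errors and 95% intervals. Sums, shares and ratios were compared by the two-sided exact permutation test, whose smallest p is 0.1. It was also run on the ratios to the receptors. Its outcome there is not given, because the receptor values were known when these ratios were chosen. For the length and GC correction, the deviations of a library from the gene means were fitted on both properties of the longest transcript by natural splines (4 degrees of freedom each) and the fit was subtracted, in 13707 genes. The scripts were tested on simulated data. The alternatives were a replicate block, the correction, other pseudocounts, filters, scalings and variance models, and leaving out each library. Depth is unknown, so precision rests on the 3 libraries of each group. All members were named, and genes of the pathway lists if they met the study's criteria or had groups without overlap, at most 6 a list by unadjusted p. The 3 most correlated genes were named for *Lfng* and for the member with the smallest unadjusted p. Other list genes were named for their role after their values were seen. The members and lists were chosen with earlier results of these data known. The pairing check is given with the alternatives.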

Additional observations from a re-analysis of the deposited data

How the results depend on the processing

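The 9 log2 fold changes were refitted under 15 alternatives. Of the 135 values, 124 kept their direction and side of the study's criteria and 9 changed sign, with no adjusted p below 0.545 in any of them. Those of *Lfng* that changed sign were 0.032 after the length and GC correction, also with the replicate block, 0.055 with quantile normalization and 0.047 with median-ratio scaling. With single libraries left out, *Lfng* ranged from -0.062 to 0.042, above 0 without control replicate 2 or cKO replicate 1 (0.035), *Adam10* from -0.63 to 0.0020, above 0 without control replicate 2, and *Rfng* from -0.10 to 0.17, below 0 without control replicate 2 (-0.055) or cKO replicate 3 (-0.10). The number of the 9 genes under the study's criteria was 0 in all alternatives but 1, and ranged from 0 to 2 when single libraries were left out, the 2 being *Adam10* and *Adam17* without control replicate 3.

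Same-numbered libraries had correlations of their deviations from the group means of -0.08, 0.29 and 0.40 across genes. The design text speaks of pairs of replicates without saying what a pair shares, and 1 of the 3 correlations is not positive, so whether the numbers pair the libraries was not settled. With the replicate block, 0 of the 9 genes met the criteria and *Adam17* had the smallest unadjusted p, 0.0802 from limma. Over all genes, the block moved the count under the criteria from 552 to 1315 and the count by adjusted p from 2 to 4, and with the correction as well these were 1110 and 1. Without the filter on low values they were 940 and 1. The count by adjusted p was 4 with a pseudocount of 0.1 and 4 with quantile normalization, and 0 with rescaling to protein-coding genes other than *Amelx* and *Ambn*, with an unadjusted p below 0.05 in 755 genes. Leaving out single libraries gave 195 to 1152 genes under the criteria and 2 to 9 by adjusted p. The cause of these differences was not tested. Of the genes under the criteria 38.6% were higher in cKO, against 54.0% with the correction, 49.9% with quantile normalization, 48.7% with median-ratio scaling and 13.8% with the rescaling, which shifted the median of all genes to -0.12.

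The Fringe sum was 72.6 TPM in the control and 70.2 TPM in the cKO after the rescaling, which raises every TPM, and 49.0 TPM in the control and 51.3 TPM in the cKO with median-ratio scaling. With 3 libraries a group, the intervals allow differences of the sizes printed beside each gene.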
